A study of Arabidopsis thaliana with 3 samples.

Results

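PDF1.2 and PDF1.2b, which encode plant defensins, and AT5G05600, an enzyme gene of jasmonate hydroxylation, were measured in leaves of 2 week old Arabidopsis thaliana. They are 3 of 13286 genes that have a probe set naming 1 gene, each has 1 such probe set, and they were found by the gene that the array's annotation gives to it. The members were chosen by their signals and ratios on these arrays, where all 3 stood above untreated Col-0 in both MKK2 lines, so these values are a description with no test. The defensin signals were highest in one line. The hydroxylation gene's signal was highest in the other, by a ratio that did not stand out from the scatter of these arrays.

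The study profiled 3 arrays, 1 for each genotype, to compare plants that overexpress the MAP kinase kinase MKK2, as the wild-type or the constitutively active protein, with plants that do not. All were in the Col-0 accession, and the labels name a treatment for none of the MKK2 plants. MKK2 line A is the array whose title says w.t.4 and whose source name says EE4. MKK2 line B is the array whose title says EE4 and whose source name says w.t.4. The labels thus contradict each other on which variant each line carries, and no direction between the variants is drawn here. Col-0 without the transgene, labelled untreated, is the common laboratory accession. The sources used here give neither the promoter of the transgenes nor how many plants were pooled. With 1 array a genotype, no value has a replicate error and no test across samples was possible.

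Jasmonates are lipid-derived hormones of wounding and defence. The conjugate of jasmonic acid with isoleucine binds the receptor COI1 together with JAZ repressors, which are then degraded, and transcription factors such as MYC2 are released. Together with ethylene, which acts through EIN3, the hormone raises ERF factors such as ERF1 and ORA59, and these drive the defensin gene PDF1.2, a small secreted antifungal peptide and the usual marker of this branch. Hydroxylation of jasmonic acid works against the signal, since the product is not turned into the active conjugate. The genes of the hydroxylating enzymes are themselves raised by jasmonate. PDF1.2 and AT5G05600 are therefore an output of the pathway and a step of its turnover. MKK2 is known for relaying cold and salt stress to other MAP kinases.

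Values are MAS5 signals on a linear scale, each array set to a trimmed mean of 100, and signals under 25 were raised to 25 before ratios were taken because such dim signals are imprecise. A ratio of 2 or more in either direction is called 2-fold higher or lower. The median signal was between 31.5 and 35.3 on the 3 arrays. As a yardstick, the middle 95% of ratios among bright probe sets (100 or more on both arrays) spanned 0.669 to 1.90 in line A over Col-0. The same span was 0.649 to 1.69 in line B over Col-0 and 0.711 to 1.52 in line A over line B. Array noise and real differences both enter these spans. The leaf markers LHCB4.1, RCA and PSAE-1, 3 of 6 with a named probe set, had summed signals of 15092 in line A, 16354 in line B and 15607 in Col-0. The root gene EXPA7 and the seed gene LCR67, 1 named probe set of 4 in each list, were under 25 on every array. The guard cell list had 2 of 4 named, with summed signals of 356 in line A, 342 in line B and 430.3 in Col-0, and the flower and epidermis lists had none. Of 6 ratios of 3′ to 5′ control signal, a sign of RNA integrity, both lines exceeded Col-0 in 4 (actin and GAPDH) and lay below it in 2 (ubiquitin). Each of these 3 transcripts gave 2 of the 6, so they are not 6 separate measures. The first actin ratio was 4.09 in line A, 3.83 in line B and 3.03 in Col-0, and the first ubiquitin ratio 2.92, 3.02 and 3.75. The part of RNA integrity or of guard cell content in the results was not tested. No probe set is named as MKK2, so the level of its transcript in the lines was not analysed here.

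PDF1.2 (AT5G44420) had a signal of 275 in line A, 519 in line B and 70.1 in Col-0. Line B was the highest array and Col-0 the lowest, and all 3 signals were above the floor of 25. Line A stood 3.93-fold above Col-0, a log2 ratio of 1.97, and line B stood 7.40-fold above it, a log2 ratio of 2.89. Whether more cells made the transcript or each cell held more of it cannot be told apart in whole leaves.

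PDF1.2b (AT2G26020), a close relative of PDF1.2, had a signal of 552 in line A, 975 in line B and 139 in Col-0. The arrays fell in the same order as for PDF1.2. Line A stood 3.96-fold above Col-0 and line B 7.00-fold above it, log2 ratios of 1.99 and 2.81. The ratios of the defensin probe sets to Col-0 thus differed from each other by 0.01 on the log2 scale in line A and by 0.08 in line B. The probe set of PDF1.2b carries the suffix _x_at, which marks probes shared with other transcripts, so it can read PDF1.2 itself and other defensins. The 2 probe sets are therefore not separate evidence for 2 genes. PDF1.2c, the gene next to PDF1.2 on the chromosome, and PDF1.3, the gene next to PDF1.2b, have no probe set that names them alone, and their part in either signal was not tested.

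AT5G05600 had a signal of 183 in line A, 152 in line B and 27.7 in Col-0. Here line A was the highest array, and Col-0 lay just above the floor. Line A stood 6.63-fold above Col-0 and line B 5.51-fold above it, log2 ratios of 2.73 and 2.46. These sizes lean on the dim Col-0 signal. With the floor at 50 they were 3.67-fold and 3.05-fold, and with 16 added to every signal in place of a floor they were 4.57-fold and 3.86-fold. The signals of the lines themselves do not depend on the floor.

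**Figure D1:**
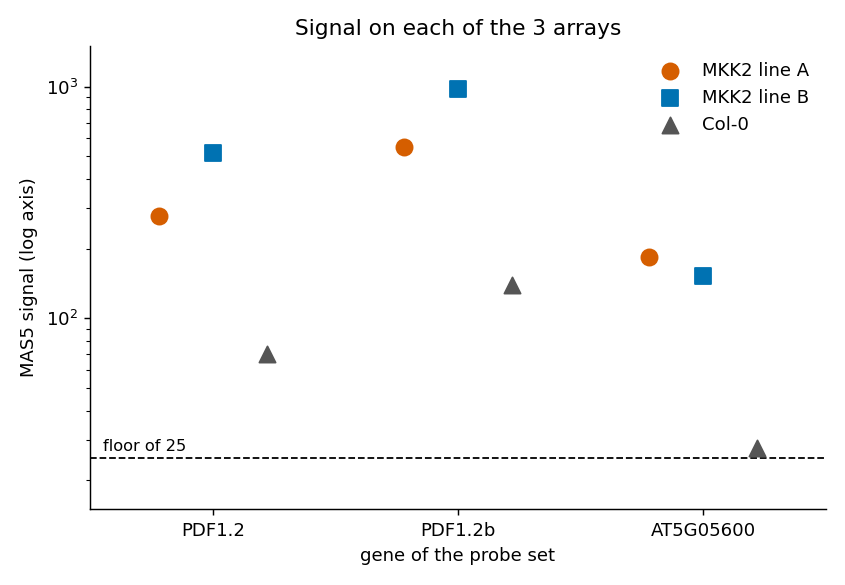
MAS5 signal (log axis) of the probe sets of PDF1.2, PDF1.2b and AT5G05600 on the arrays of MKK2 line A (circles), MKK2 line B (squares) and Col-0 (triangles), 1 array each, with the floor of 25 dashed. PDF1.2 and PDF1.2b are highest in line B (519 and 975), AT5G05600 is highest in line A (183), and Col-0 is lowest for each gene.

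Against all probe sets, these ratios were among the highest. Of 22746 compared probe sets, in line A 1.4% reached 2-fold above Col-0 while 0.391% reached 2-fold below it, and in line B 0.941% and 0.536% did. The members were chosen for these ratios, so nothing is read from the fact that 3 of 3 are among them. AT5G05600 ranked 21st of all probe sets in line A and 13th in line B. PDF1.2 ranked 70th in line A and 3rd in line B, and PDF1.2b ranked 66th in line A and 5th in line B. All 3 ranked nearer the top in line B, where fewer probe sets reached 2-fold above Col-0 (214, against 318 in line A), so a rank can rise while the ratio is smaller, as for AT5G05600. Both lines were set against the same Col-0 array, so a chance deviation of that array enters both ratios of a gene.

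**Figure D2:**
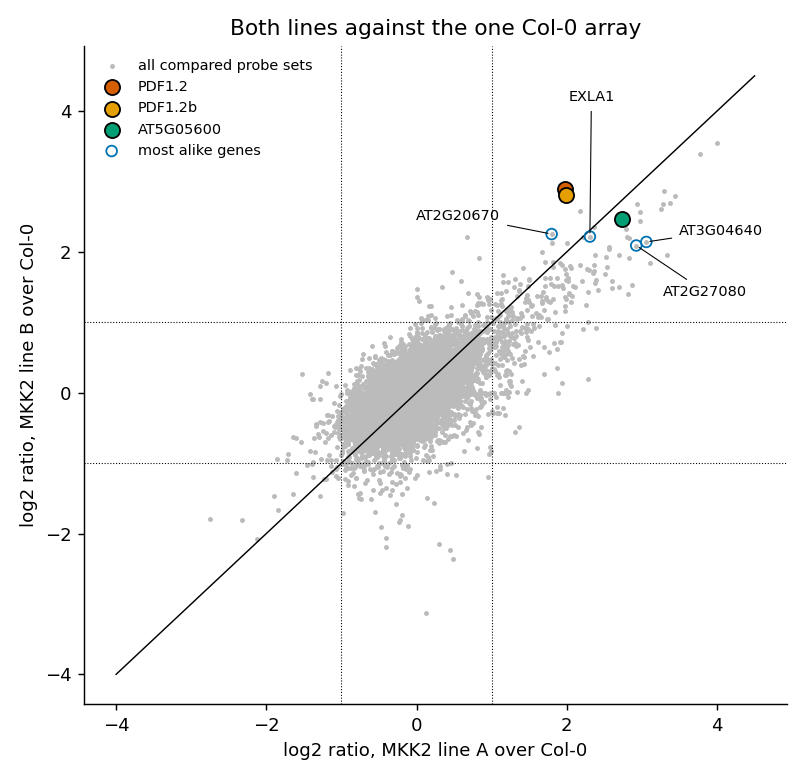
Log2 ratio of MKK2 line A over Col-0 (horizontal) and of MKK2 line B over Col-0 (vertical) for every compared probe set (grey), with PDF1.2, PDF1.2b and AT5G05600 filled and the most alike genes ringed. Dotted lines mark 2-fold and the solid line equal ratios: the defensins lie above it at 1.97 and 2.89 (PDF1.2) and at 1.99 and 2.81 (PDF1.2b), and AT5G05600 below it at 2.73 and 2.46.

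The lines were then set against each other, a comparison that leaves the Col-0 array out. PDF1.2 was at 0.531-fold in line A over line B, which is 1.88-fold higher in line B, and PDF1.2b was at 0.566-fold, which is 1.77-fold higher in line B. Both lay below the middle 95% of bright probe sets, which began at 0.711. Neither reached 2-fold, as 0.18% of all probe sets did in that direction and 0.585% did toward line A. AT5G05600 had a log2 ratio of 0.27 in line A over line B, inside the middle 95%, so its order between the lines does not stand out from the scatter of these arrays.

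Among all 159 probe sets that were 2-fold or more above Col-0 in both lines, which is 0.699% of those compared, line A was the higher line at 125 and line B at 34, 0.149% of those compared. The defensin probe sets, which can read the same transcript, were the 2 of the 159 furthest toward line B, a place that describes the values they were chosen by and supports nothing further. On the log2 scale, the ratio of line A over line B was lower by 1.18 for PDF1.2 than for AT5G05600 and lower by 1.09 for PDF1.2b than for AT5G05600. The ratio over Col-0 was larger for AT5G05600 than for either defensin in line A and smaller in line B. With a floor of 50 the first of these orders turned, at log2 ratios of 1.87 for AT5G05600 and 1.97 for PDF1.2 in line A.

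**Figure D3:**
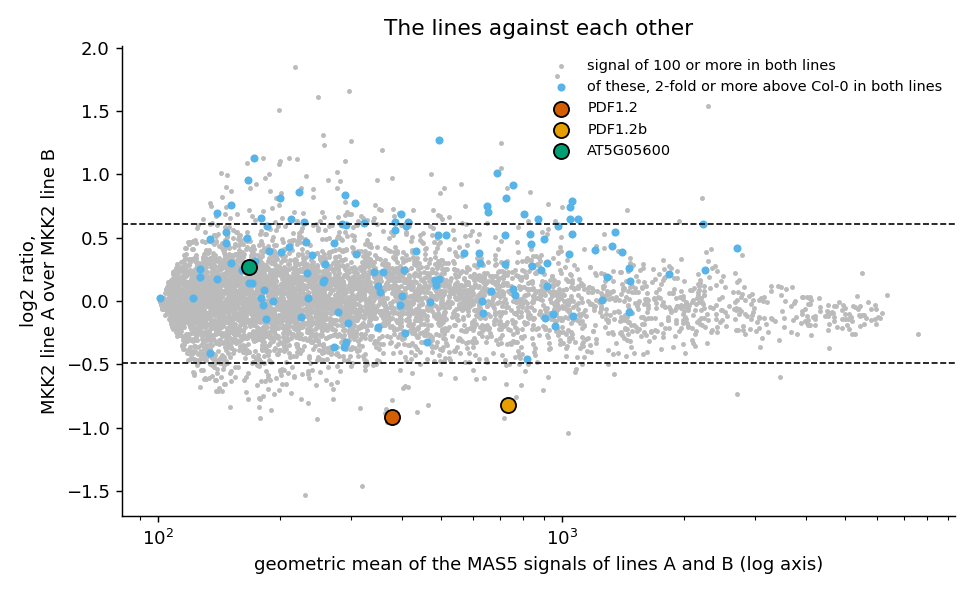
Log2 ratio of MKK2 line A over MKK2 line B against the geometric mean of the signals of both lines (log axis), for probe sets with a signal of at least 100 in each line (grey) and those of them 2-fold or more above Col-0 in both lines (blue). Dashed lines bound the middle 95%, from -0.49 to 0.60: PDF1.2 (-0.91) and PDF1.2b (-0.82) lie below it and AT5G05600 (0.27) inside it.

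The other plant defensins were under the floor or close to their Col-0 signal. Of 15 defensin genes on the list, 12 have a named probe set. The 2 members, chosen for these ratios and read by probe sets that can share a transcript, reached 2-fold above Col-0 in each line. Over all probe sets 1.4% (line A) and 0.941% (line B) did. Of the other 10, 8 were under the floor on every array. None of the 10 was 2-fold higher or lower in any comparison, but 10 genes are too few to set against such shares. Those 8 include LCR67, also known as PDF1.1 and mainly a seed defensin, with signals of 1.16 in line A, 8.64 in line B and 0.865 in Col-0. PDF1.4 had signals of 23.9 in line A, 6.97 in line B and 19.7 in Col-0. Signals this dim carry no order, and ratios of 0 there follow from the floor. The remaining 6, PDF2.1, LCR66, PDF2.5, LCR72, LCR80 and LCR59, were likewise under 25 on all 3 arrays.

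The 2 other defensins above the floor were bright enough to be compared. LCR68 (PDF2.3) had a signal of 448 in line A, 379 in line B and 395 in Col-0. Against Col-0 it stood at log2 ratios of 0.18 (line A) and -0.06 (line B), both inside the middle 95%. LCR69 (PDF2.2) had a signal of 108 in line A, 99.0 in line B and 98.7 in Col-0. Its arrays lay closer still, with log2 ratios of 0.13 and 0.00. The median log2 ratio over the 10 defensins other than the members was 0.00 in each comparison, as it was over all probe sets, but with 8 of 10 under the floor this median says little.

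Of the genes of jasmonate turnover, 5 of 12 have a named probe set. AT5G05600, chosen for these ratios, alone reached 2-fold above Col-0 at the floor of 25, which it did in each line. Over all probe sets 1.4% (line A) and 0.941% (line B) did, and the 4 other genes are too few to set against such shares. JRG21 (AT3G55970), named for its regulation by jasmonate, is listed beside AT5G05600 as a hydroxylation gene. Its signal was 21.5 in line A, 40.1 in line B and 2.46 in Col-0. Line B alone was above the floor, and it stood at least 1.60-fold above Col-0. A floor of 10 put JRG21 at least 2.15-fold over Col-0 (line A) and at least 4.01-fold over it (line B). The order of the arrays, line B above line A above Col-0, was that of the defensins and not that of AT5G05600, on signals too dim to rank with confidence.

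AT2G38240, on the list as another hydroxylation gene, had a signal of 64.2 in line A, 58.8 in line B and 37.5 in Col-0. Line A was 1.71-fold above Col-0 and line B 1.57-fold, in the same order of arrays as AT5G05600 but under 2-fold. AT3G11180, the last of that family on the list, was under the floor throughout, with signals of 10.4 in line A, 8.33 in line B and 13.8 in Col-0. JMT, the enzyme that makes volatile methyl jasmonate, had a signal of 45.8 in line A, 43.4 in line B and 33.6 in Col-0, at 1.36-fold and 1.29-fold. The annotation used here gives AT5G05600, AT2G38240 and AT3G11180 no symbol, and their place on the list comes from general knowledge of the gene family. Over the 4 turnover genes other than AT5G05600, the median log2 ratio to Col-0 was 0.22 (line A) and 0.51 (line B), against 0.00 over all probe sets. The floor sets the ratio of AT3G11180 to 0 in both lines and that of JRG21 to 0 in line A. AT2G38240 and JMT were slightly higher in line A, so these medians give no order of the lines.

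Genes earlier in the pathway were thinly covered by named probe sets. OPCL1, an enzyme of jasmonic acid synthesis that activates its precursors in the peroxisome, is the 1 of 18 synthesis genes with a named probe set. Its signal was 182 in line A, 152 in line B and 84.3 in Col-0. The lines stood 2.16-fold and 1.81-fold above Col-0. Between the lines OPCL1 had a log2 ratio of 0.26, inside the middle 95%, as was AT5G05600 at 0.27. This value is not particular to them. The transcription factors MYC3, MYC4 and EIN3, described below, had 0.30, 0.27 and 0.27 without reaching 2-fold above Col-0. Of 9 named jasmonate and ethylene genes other than the members, 6 were above 0 in line A over line B, and JRG21 was at -0.68. With 16 added to every signal, the ratio of OPCL1 in line A was 1.98-fold, just under the threshold.

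The transcription factors of the pathway with a named probe set, MYC3, MYC4 and EIN3, had ratios under 2-fold. MYC3 and MYC4, relatives of MYC2, are the 2 of 19 perception and repressor genes with a named probe set. MYC3 had a signal of 89.3 in line A, 72.3 in line B and 96.3 in Col-0. MYC4 had a signal of 128 in line A, 106 in line B and 116 in Col-0. Their log2 ratios to Col-0 lay between -0.41, that of MYC3 in line B, and 0.15, that of MYC4 in line A. EIN3, the ethylene transcription factor that acts above the ERF genes, had a signal of 504 in line A, 418 in line B and 579 in Col-0. Its log2 ratios to Col-0 were -0.20 (line A) and -0.47 (line B), so both lines lay below Col-0, by less than 2-fold and inside the middle 95%. THI2.1, a thionin gene that jasmonate raises, had a signal of 13.7 in line A, 23.7 in line B and 23.5 in Col-0, under the floor throughout.

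ERF1 and ORA59, which drive PDF1.2, have no named probe set, and neither does any of the 11 ethylene synthesis genes, of the 7 genes of output through MYC factors, or of the 3 salicylic acid genes. Of 11 genes of ERF output 1 has one (THI2.1), and of 11 genes of ethylene signalling 1 (EIN3). The annotation used here gave no gene to 8730 probe sets and several to 503. A gene without a named probe set is therefore not shown to be missing from the arrays. Over the jasmonate and ethylene lists together, without the members, 9 of 88 genes have a named probe set. Of these 9, line A had 1 (OPCL1) that reached 2-fold above Col-0 and line B had none, and none reached 2-fold below it in either. Over all probe sets 1.4% (line A) and 0.941% (line B) reached 2-fold above Col-0, and 9 genes are too few to set against such shares. The median log2 ratio of the 9 was 0.00 in both lines, as over all probe sets, and 0.12 between the lines. In each line the middle gene was under the floor on both arrays, so 0.00 follows from the floor and says little. With a floor of 10 the medians over Col-0 were 0.15 (line A) and 0.01 (line B).

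**Figure D4:**
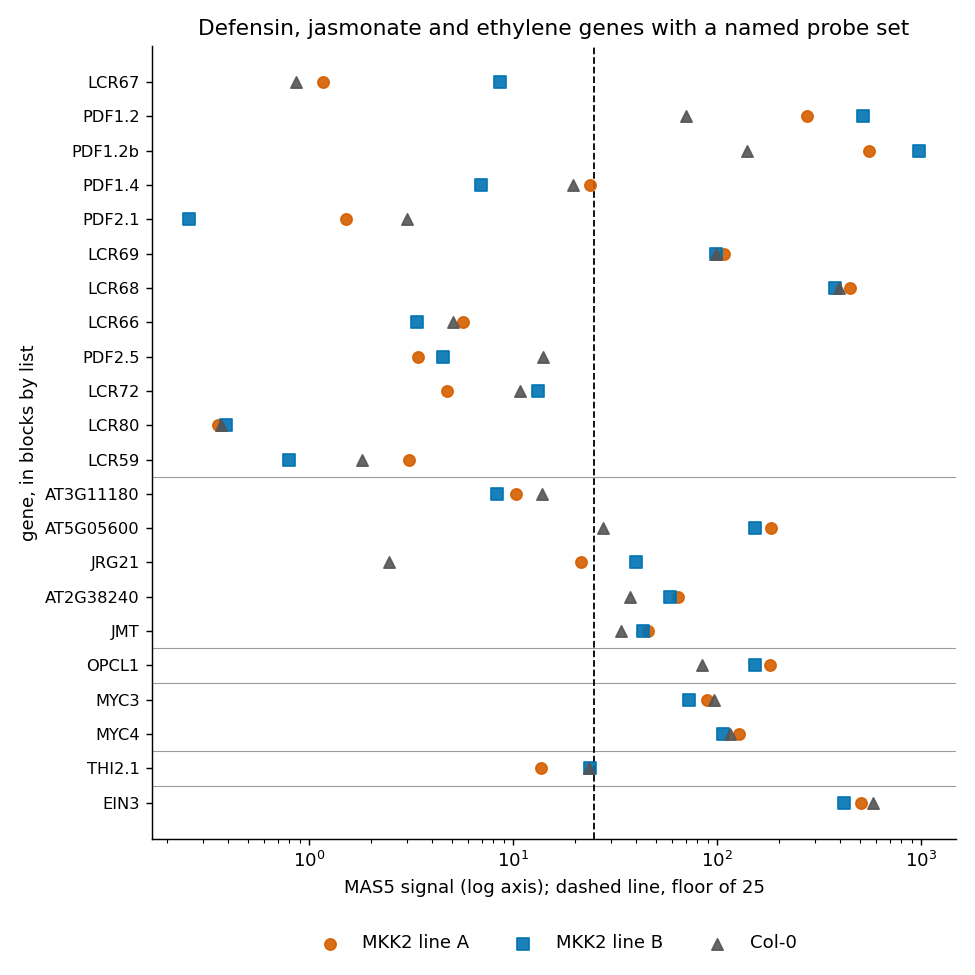
MAS5 signal (log axis) of every listed gene with a named probe set, on the arrays of MKK2 line A (circles), MKK2 line B (squares) and Col-0 (triangles), in blocks from the top for defensins, jasmonate turnover, jasmonate synthesis, MYC factors, ERF output and ethylene signalling. PDF1.2, PDF1.2b and AT5G05600 show the widest gaps among genes right of the floor of 25 (dashed) on every array, and 8 defensins lie left of it on all 3.

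Genes with the most similar pair of ratios to Col-0 were sought among 3318 probe sets that name a locus, have a signal of at least 25 on all 3 arrays and reach 100 on 1 of them. Likeness was the straight-line distance between the pairs of log2 ratios, over 3 arrays and 2 ratios that share Col-0. For PDF1.2 the nearest was PDF1.2b, at 0.081, followed by AT2G20670 at 0.658 and EXLA1, an expansin-like cell wall gene, at 0.749. For PDF1.2b they were PDF1.2, AT2G20670 at 0.585 and EXLA1 at 0.672. No other candidate thus came within 0.5 of the defensins. AT2G20670 had a signal of 698 in line A, 957 in line B and 201 in Col-0. Line B was its highest array, as for the defensins. Its ratio of line A over line B was 0.730, inside the yardstick span of bright probe sets, which began at 0.711. Both defensins lay below that span, so the order of the lines for AT2G20670 does not stand out from the scatter as theirs does.

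For AT5G05600 the nearest were AT2G27080, of the NDR1/HIN1-like family, at 0.420, AT3G04640 at 0.461 and EXLA1 at 0.487. AT2G27080 had a signal of 386 in line A, 216 in line B and 50.8 in Col-0, and AT3G04640 had 1035 in line A, 548 in line B and 124 in Col-0. In both, line A was the highest array, as for AT5G05600, with a wider gap between the lines, where line A was 1.78-fold and 1.89-fold above line B. EXLA1 had a signal of 188 in line A, 177 in line B and 38.1 in Col-0.

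**Figure D5:**
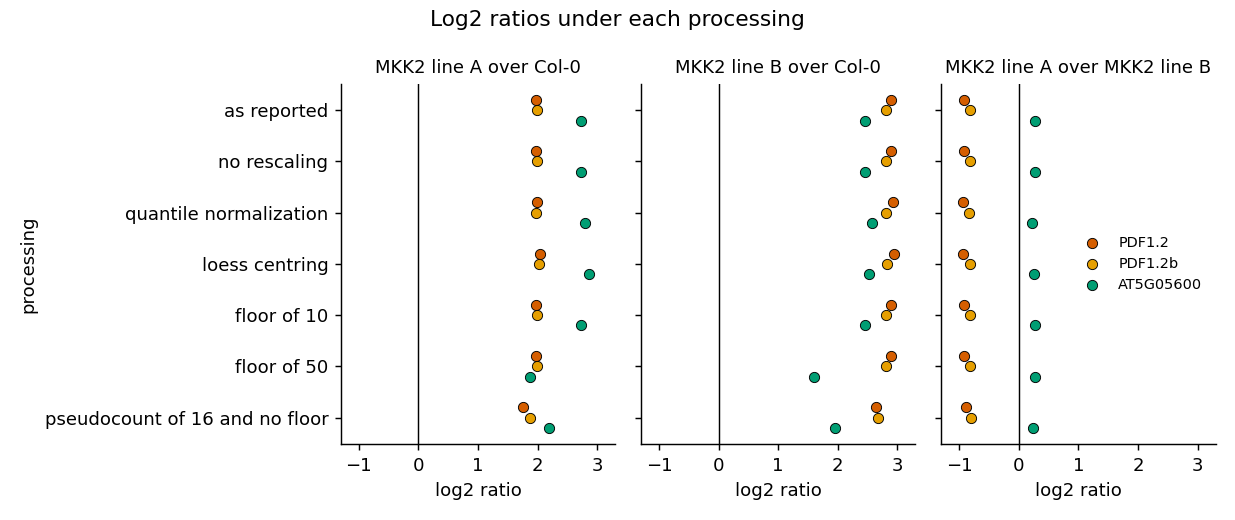
Log2 ratios of PDF1.2, PDF1.2b and AT5G05600 for line A over Col-0, line B over Col-0 and line A over line B (panels from left), under the reported processing and 6 others (rows). Every point keeps its side of 0, and the points of AT5G05600 against Col-0 shift most, to 1.87 and 1.61 at a floor of 50.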

How the data were processed

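The deposited table holds linear intensity values, 1 for each probe set on each array. They are MAS5 signals, per the submitters' processing notes. No source used here gives the software version, its scaling settings or the detection calls. The trimmed mean (2% off each end) was 100.01 on every array as deposited. Each array was rescaled to exactly 100, signals under 25 were set to 25, and log2 ratios were taken. Of 22810 probe sets, 64 controls were left out. Array number limits the precision, as no depth exists for arrays.

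The annotation gave 1 gene to 13513 probe sets, several to 503 and none to 8730, and 13436 matched a locus of the TAIR10.1 reference. No coordinates are printed, since the build of the chip is not stated. No gene of the lists had more than 1 probe set. The members and the 9 pathway and 6 marker lists were chosen with earlier results of these data known. Named genes were the members, all listed defensins and turnover genes with a named probe set, and the 3 genes most alike to each member. From the other lists came genes 2-fold apart at a signal of 50 or more, or otherwise the gene furthest from 0. MYC4 was named as well, though MYC3 lay further from 0. The ratio counting was tested on simulated arrays with changes placed only in bright probe sets, so that test does not cover changes in dim signals. A planned search of promoters for motifs was not run because no promoter sequence was used here. The alternatives tried changed the scaling (none, quantile, or loess with a span of 0.4), the floor (10, 50, or a pseudocount of 16 in its place), the threshold (1.5-fold or 3-fold), the probe sets counted (without the 1061 whose suffix is of the _x_at kind) and, for lists, the probe set used (a mean over those of each gene). Computations used Python 3.11.15, numpy 2.4.6, pandas 2.3.3, statsmodels 0.14.6 and matplotlib 3.10.9.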

Additional observations from a re-analysis of the deposited data

How the results depend on the processing

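The 9 log2 ratios of PDF1.2, PDF1.2b and AT5G05600 kept their sign under all 6 alternatives. A floor or a pseudocount cannot turn a sign, and a floor of 10 lay under every signal of these genes. Leaving out the rescaling changed signals by about 0.01%, so only quantile and loess scaling could have turned one. PDF1.2 ranged from 3.38-fold to 4.11-fold in line A over Col-0 and from 6.21-fold to 7.66-fold in line B, and PDF1.2b from 3.65-fold to 4.04-fold and from 6.38-fold to 7.12-fold. A floor of 50 lowered the log2 ratios of AT5G05600 over Col-0 to 1.87 in line A and 1.61 in line B, because its Col-0 signal is under that floor. The probe sets 2-fold or more higher numbered 318 in line A over Col-0, 214 in line B over Col-0 and 133 in line A over line B. At 1.5-fold they numbered 754, 701 and 533, and at 3-fold 121, 69 and 21. A floor of 10 gave 405 in line B over Col-0 and 276 in line A over line B, and a floor of 50 gave 73 in the last. The median of the jasmonate and ethylene lists moved by less than 1.5-fold under its 7 alternatives, but not all of these could move it. A mean over probe sets could not, since no listed gene had more than 1, and leaving out the rescaling hardly could. The medians over Col-0 were 0, which a floor of 50 cannot change. Quantile and loess scaling, the floor of 10 and the pseudocount could have moved the medians. No paired analysis was possible because each genotype has 1 array. Dim signals limit what can be said of JRG21 and of 8 defensins, and no alternative replaces the missing replicates.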

Other observations

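The gene next to PDF1.2 on its other side, AT5G44410, ran the opposite way to the defensin. Its signal was 31.0 in line A, 33.7 in line B and 65.1 in Col-0, at 0.476-fold and 0.517-fold of Col-0. AT5G44400, the gene beyond it, had a signal of 64.3 in line A, 38.8 in line B and 28.0 in Col-0, at 2.29-fold and 1.38-fold. All of these signals are under 100. AT5G44440, beyond PDF1.2c, was under the floor on all 3 arrays. None of the 4 nearest protein-coding genes around PDF1.2b, and none of the 4 around AT5G05600, has a probe set that names it alone. These neighbours were looked up after the values of the members were known.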
